A study of Homo sapiens with 8 samples.

Results

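The 44 genes described here encode the machinery that copies DNA, and were taken from a list of names: every listed gene was measured and tested, out of 14079 tested genes and 19775 genes with a probe set of their own. They fall into 7 groups by role: origin licensing (13 genes), GINS and helicase activation (6), polymerases and primase (9), the sliding clamp and its loader (6), the single-strand binding protein RPA (3), nucleotide synthesis (4), and Okazaki fragment maturation with uracil removal (3). RNA came from human embryonic stem cells that the labels name as H9, an established line, kept in mTeSR medium. The 4 groups of 2 arrays each were undifferentiated cells and embryoid bodies, the floating aggregates in which such cells differentiate, each without ethanol (0 mM) or with 20 mM ethanol for 24 h. The labels name no transgene, deletion or other agent for any group, and the age of the embryoid bodies is not given in the sources used here. The replicate arrays are called duplicates without word on separate cultures, so p-values measure only the spread between these arrays.

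Replication starts at origins that are loaded beforehand with the MCM helicase by the origin recognition complex (ORC), CDC6 and CDT1, a step called licensing. Entry into S phase turns loaded MCM into a working helicase by adding CDC45 and the GINS complex. Polymerase alpha with primase then lays down primers, polymerases epsilon and delta extend them on the PCNA clamp that RFC loads, RPA coats the exposed single strands, and FEN1 and LIG1 finish the lagging strand. Deoxynucleotides come from ribonucleotide reductase (RRM1 and RRM2), thymidylate synthase (TYMS) and thymidine kinase (TK1). Many of these genes are switched on before S phase by transcription factors of the E2F family, and pluripotent stem cells, which cycle quickly with a short G1 phase, are known for high levels of them. In whole RNA from mixed aggregates, fewer cells of a type and less RNA per cell cannot be told apart.

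Median array signals were 69.2 to 79.4 in undifferentiated cells, 83.2 to 85.1 in embryoid bodies without ethanol and 102 on both embryoid body arrays with ethanol, at a common trimmed mean of 500 to 500.1. Genes that check the cell line did not match the line in the labels on 4 of the 8 arrays, all of 1 stage, so stage and line cannot be told apart in any comparison of stages; the comparisons of ethanol doses lie within a stage. All 8 mesenchyme markers and all 7 tested endoderm and yolk sac markers were higher in embryoid bodies at both doses. Of 9 tested markers of pluripotent cells 5 were lower and none higher at 0 mM. At 20 mM 7 of them were lower and GDF3 was higher (log2 change 0.55). The summed mesenchyme signal was 7816 to 9747 in undifferentiated cells, 46315 to 47562 in embryoid bodies without ethanol and 70117 to 71061 with it. The summed signal of pluripotent markers was 98488 to 106968, 78527 to 80882 and 68751 to 71775 in the same order, and all 9 stayed above the array median on every array. Among all tested genes 28.0% were higher and 24.7% lower at 0 mM, and 29.2% and 27.1% at 20 mM. Of 8 neuronal markers 5 were higher at 0 mM, and 6 were higher and 1 lower at 20 mM. Of the 3 tested for cardiac muscle 2 were higher at 0 mM and 1 at 20 mM. Of the 4 tested for endothelium and blood 1 was higher and 2 lower at 0 mM, and none was called at 20 mM. The part of this change in cell makeup in the results below was not tested.

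The start regions of the genes were searched for E2F words. The search covered the 250 bases before each start in RefSeq's promoter table (GRCh38.p14), on both strands, for the E2F word TTTNNCGC with each N a C or a G. At least 1 such word was found for 14 of the 38 genes that matched the table, or 36.8%, against 5.35% of the 11325 tested genes in it and 3.4% of all 27305 genes. The CCAAT box was found for 63.2% of the 38 genes against 41.1% of tested genes. TTTGAA, the core of the element known as CHR, was found for 5.26% against 12.4%. The 14 genes with an E2F word were ORC3, CDT1, MCM3, MCM6, MCM7, GINS2, POLA1, POLA2, POLE, PCNA, RFC3, TYMS, LIG1 and UNG. MCM4, MCM5, GINS4, POLD3, RPA2 and RPA3 were not matched.

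Sequences are shown for 8 genes that carry the comparisons below, as the 120 bases before the most upstream listed start, 5′ to 3′ in the direction of transcription, with the E2F word in capitals. In CDT1, GINS2, RFC3 and POLE the word lies on the opposite strand, so the capitals spell its reverse complement, and in POLA2 it reads in the direction of transcription. The first 3 carry the word and were lower in embryoid bodies, POLE carries it and was higher at 20 mM, POLA2 carries it and differed little, and TK1, FEN1 and RRM2 hold none in the bases shown.
CDT1, chr16:88803669-88803788, plus strand: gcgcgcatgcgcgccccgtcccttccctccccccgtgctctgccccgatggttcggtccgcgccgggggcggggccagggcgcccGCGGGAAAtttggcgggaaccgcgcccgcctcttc
GINS2, chr16:85688955-85689074, minus strand: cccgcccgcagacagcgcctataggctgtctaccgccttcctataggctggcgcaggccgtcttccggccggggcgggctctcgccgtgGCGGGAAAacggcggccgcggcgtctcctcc
RFC3, chr13:33818029-33818148, plus strand: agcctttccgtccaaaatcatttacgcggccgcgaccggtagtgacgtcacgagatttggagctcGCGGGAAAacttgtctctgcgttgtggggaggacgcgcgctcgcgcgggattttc
POLE, chr12:132687343-132687462, minus strand: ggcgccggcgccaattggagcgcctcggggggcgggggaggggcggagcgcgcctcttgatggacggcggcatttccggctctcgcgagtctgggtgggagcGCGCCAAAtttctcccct
POLA2, chr11:65261842-65261961, plus strand: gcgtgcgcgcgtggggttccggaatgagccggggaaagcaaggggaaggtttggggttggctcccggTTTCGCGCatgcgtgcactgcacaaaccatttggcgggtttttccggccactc
TK1, chr17:78187205-78187324, minus strand: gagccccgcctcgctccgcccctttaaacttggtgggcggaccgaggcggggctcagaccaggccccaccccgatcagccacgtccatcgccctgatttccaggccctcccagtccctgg
FEN1, chr11:61792791-61792910, plus strand: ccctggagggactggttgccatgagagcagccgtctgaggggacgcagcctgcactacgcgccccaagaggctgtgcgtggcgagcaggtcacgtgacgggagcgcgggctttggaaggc
RRM2, chr2:10122448-10122567, plus strand: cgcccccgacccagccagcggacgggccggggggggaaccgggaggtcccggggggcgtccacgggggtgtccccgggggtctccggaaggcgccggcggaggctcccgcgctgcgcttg

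A match is a description of letters and not a bound site. In CDT1 the word began 35 bases before the start, in GINS2 31, in RFC3 55, in POLE 18 and in POLA2 53. Genes with and without the word had medians close together: of the 14 with it, 7 were lower and 1 higher in embryoid bodies at 0 mM (median log2 change -0.25), and of the 24 without it, 13 were lower and 2 higher (median -0.25). At 20 mM the counts were 9 lower and 1 higher of 14 (median -0.34), and 16 lower and 1 higher of 24 (median -0.30). The difference between both sets was not tested.

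Embryoid bodies were compared with undifferentiated cells at each dose. Without ethanol 22 of the 44 genes were lower at an adjusted p under 0.05 and 4 were higher (limma, Benjamini-Hochberg over 14079 genes), against 24.7% of all tested genes lower and 28.0% higher. With ethanol 29 were lower and 3 higher, against 27.1% and 29.2% of all tested genes. In percent of the 44, this is 50% and 65.9% lower, and 9.09% and 6.82% higher. The counts by role below are to be set against the same shares of all tested genes. The median log2 change was -0.25 at 0 mM and -0.31 at 20 mM, while the median of all tested genes was 0.02 at both. Under quantile normalisation 18 genes were lower at each dose, and under cyclic loess 18 and 14. Falls were modest: apart from CDT1 at 0 mM and RPA3 at 20 mM, no member was lower by more than 1 on the log2 scale.

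**Figure D1:**
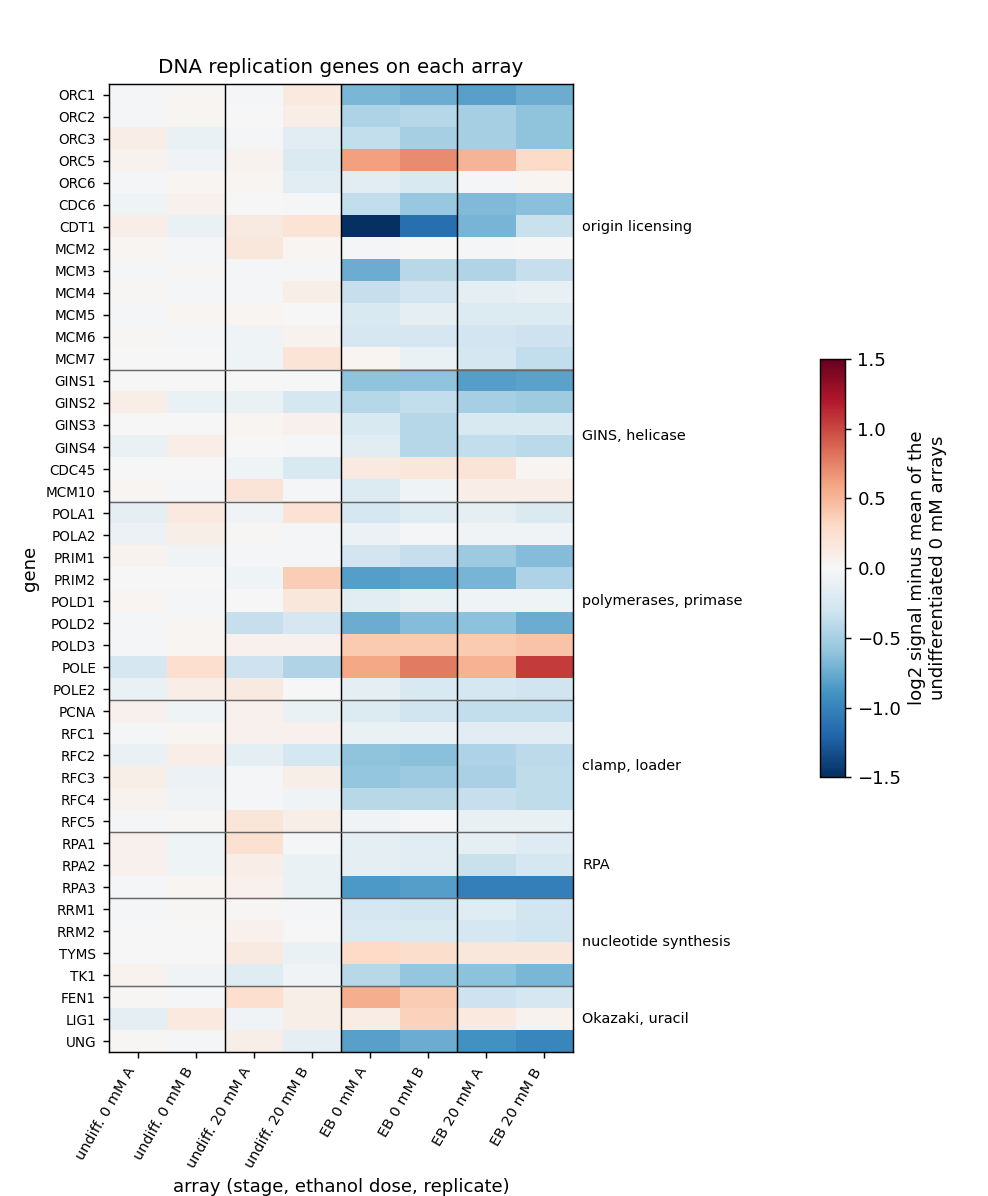
Each row is a replication gene and each column an array, and the colour is the log2 signal minus the mean of both undifferentiated arrays without ethanol, with colours saturated at 1.5 either way. Most rows are blue on the 4 embryoid body arrays, while ORC5, POLD3, POLE, TYMS, CDC45 and LIG1 are red or pale red on all 4. FEN1 is red on the embryoid body arrays without ethanol and blue on those with it.

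The stage comparisons at 0 and 20 mM share no array. Both took the error of each gene from the same fit to all arrays, so their calls are not independent. In both, 20 genes were lower, which is 90.9% of those lower at 0 mM and 69% of those lower at 20 mM. Over all tested genes the 2843 genes lower at both doses were 81.8% and 74.7% of the genes lower at each. ORC5 and POLD3 were higher at both doses. FEN1 was called in opposite directions, and 9 genes were called at neither dose. A gene that passed at 1 dose is not shown to differ between doses: that difference equals the difference of the ethanol effects between stages, whose test called none of the 44. The sign of the change was the same at both doses for 41 of the 44 genes, against 84.1% of all tested genes.

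Bright probe sets were lower in embryoid bodies more often than others, and 30 of the 44 genes lie in the brightest 3 deciles of tested genes. There, 38.4% of all genes were lower at 0 mM and 45.9% at 20 mM, with medians of -0.13 and -0.22. In the brightest decile alone, which holds 15 of the 30, the shares were 45.8% and 55.9%, with medians of -0.20 and -0.30. Of the 30 replication genes 16 (53.3%) and 22 (73.3%) were lower, with medians of -0.25 and -0.32. Of the other 14, 6 and 7 were lower. These 14 lie in deciles 4 to 6, where 21.1% to 27.1% of all genes were lower at 0 mM and 21.9% to 31.4% at 20 mM. Under median centring, which puts the median of all tested genes 0.28 lower at 0 mM and 0.41 lower at 20 mM, 36 and 39 of the 44 genes were lower and 1 was higher, while 41.3% and 48.5% of all tested genes were lower and 17.8% and 16.1% higher. Without undifferentiated 0 mM replicate A 14 were lower at 0 mM; at 20 mM 16 were lower without undifferentiated 20 mM replicate A, and 14 and 13 without embryoid body 20 mM replicate A or B.

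**Figure D2:**
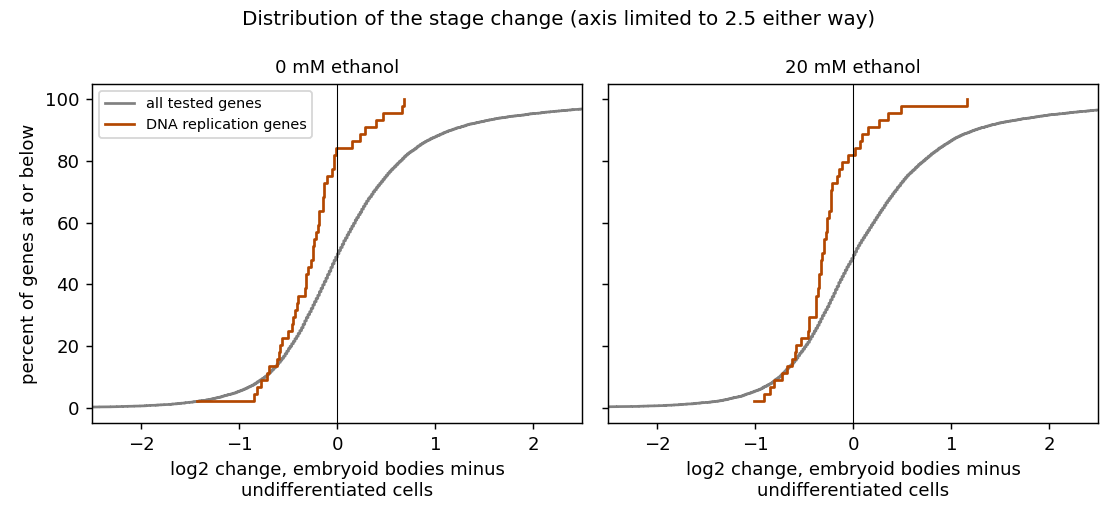
The percent of genes at or below each log2 change between embryoid bodies and undifferentiated cells, for the replication genes and for all tested genes at 0 mM (left) and 20 mM (right). The curve of the replication genes reaches 84.1% and 81.8% below 0, and lies left of the curve of all tested genes over most of the middle range, but does not extend as far to the left.

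Origin licensing genes fell in 8 of 13 cases at 0 mM and in 9 of 13 at 20 mM, with median log2 changes of -0.32 and -0.38. CDT1, which brings MCM to origins, had signals of 2291 and 1995 in undifferentiated cells without ethanol and 2344 and 2455 with it, and of 646 and 977 in embryoid bodies without ethanol and 1318 and 1698 with it. All 4 embryoid body arrays lay below all 4 undifferentiated arrays. CDT1 was 2.69-fold lower at 0 mM (log2 change -1.43, SE 0.22, adjusted p = 0.00341) and 1.60-fold lower at 20 mM (-0.68, SE 0.22, adjusted p = 0.0428). The call at 0 mM held in all 19 alternatives that could be run for it, that at 20 mM in 10 of 19. A second CDT1 probe set, with signals of 525 to 631 in undifferentiated cells and 182 to 288 in embryoid bodies, also fell at both doses (-1.38 and -1.13).

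Among the other loading factors, ORC1, the largest subunit of the recognition complex, had signals of 1023 to 1148 on the undifferentiated arrays and 589 to 646 on those of embryoid bodies, and fell at both doses (log2 changes -0.71 and -0.85). ORC2 (-0.45 and -0.60), ORC3 (-0.43 and -0.45) and CDC6, the loader that works beside CDT1 (-0.47 and -0.63), fell at both doses as well, with SEs of 0.08 to 0.11. A second ORC2 probe set fell at 20 mM (-0.65) and did not pass at 0 mM (-0.20, adjusted p = 0.136 over probe sets). ORC5 went the other way. Its signals were 871 and 813 in undifferentiated cells without ethanol, 871 and 724 with it, 1288 and 1380 in embryoid bodies without ethanol, and 1202 and 1023 with it. The stages did not overlap, and ORC5 rose 1.58-fold at 0 mM (log2 change 0.66, SE 0.13, adjusted p = 0.00715) and 1.40-fold at 20 mM (0.48, SE 0.13, adjusted p = 0.0207). ORC6 passed the test at neither dose (-0.20 and 0.07).

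Of the 6 subunits of the MCM helicase, MCM3 (log2 changes -0.58 and -0.38) and MCM6 (-0.25 and -0.30) fell at both doses. MCM4 passed at 0 mM (-0.32) and not at 20 mM (-0.17), while another MCM4 probe set was lower at both (-0.33 and -0.47, adjusted p = 0.0292 and 0.00839 over probe sets). A further bright MCM4 probe set (-0.05 and -0.20) and a dim one (-0.43 and -0.27) passed at neither dose. MCM5 (-0.22) and MCM7 (-0.38) passed at 20 mM and not at 0 mM (-0.18 and -0.03), and the call for MCM5 was kept in 4 of 20 alternatives. A second MCM7 probe set, at 3631 to 4169, passed at neither dose (-0.03 and -0.10, adjusted p = 0.767 and 0.364 over probe sets). MCM2 had the smallest change among licensing genes. Its signals were 4677 and 4467, then 5129 and 4677 in undifferentiated cells at 0 and 20 mM, and 4467 and 4571 in embryoid bodies at each dose. The stages overlapped, with log2 changes of -0.02 (SE 0.08, adjusted p = 0.869) and -0.12 (adjusted p = 0.240).

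GINS and helicase activation genes fell in 3 of 6 cases at 0 mM and 4 of 6 at 20 mM, with medians of -0.32 and -0.31, and none rose. GINS1, a subunit of the GINS complex, read 7413 on all 4 undifferentiated arrays. In embryoid bodies it read 4898 on both arrays without ethanol, and 4169 and 4266 with it. GINS1 was thus lower on every embryoid body array, 1.51-fold at 0 mM (log2 change -0.60, SE 0.06, adjusted p = 0.000835) and 1.76-fold at 20 mM (-0.81, SE 0.06, adjusted p = 0.000267), and kept the call in all 20 alternatives at each dose. GINS2 fell at both doses (-0.40 and -0.33), as did GINS3 (-0.33 and -0.28). A dimmer GINS3 probe set passed at neither dose (-0.149 and -0.515, adjusted p = 0.572 and 0.0791 over probe sets). GINS2 signals were 2754 to 3548 in undifferentiated cells and 2291 to 2570 in embryoid bodies, without overlap, and its call was kept in 15 of 20 alternatives at 0 mM and 8 of 20 at 20 mM.

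GINS4 passed at 20 mM (log2 change -0.37, adjusted p = 0.0384) and not at 0 mM (-0.30, adjusted p = 0.0744). Its signals were 912 and 1047, then 977 and 955 in undifferentiated cells at 0 and 20 mM, against 871 and 724, then 759 and 741 in embryoid bodies. A dimmer GINS4 probe set, at 63.1 to 166 in undifferentiated cells and 219 to 269 in embryoid bodies, changed in the opposite direction at 0 mM (1.40, adjusted p = 0.0204 over 25802 probe sets). CDC45, the partner of GINS in the helicase, passed at neither dose (0.15 and 0.27). MCM10, a factor that helps start the assembled helicase, also passed at neither. Its signals were 1288 and 1230, then 1445 and 1230 in undifferentiated cells, and 1096 and 1202, then 1349 and 1349 in embryoid bodies, so the stages overlapped (-0.13 and 0.02). A second of 3 MCM10 probe sets fell at 20 mM (-0.37, adjusted p = 0.0235).

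Among polymerases and primase, 3 of 9 genes (33.3%) fell and 1 (11.1%) rose at 0 mM, against 24.7% and 28.0% of all tested genes. At 20 mM 4 (44.4%) fell and 2 (22.2%) rose, against 27.1% and 29.2%. The medians of the 9 genes were -0.18 and -0.27. Both primase subunits fell at each dose. PRIM2, the large subunit, read 813 on both undifferentiated arrays without ethanol and 776 and 1047 with it, against 457 and 468, then 501 and 589 in embryoid bodies. The stages did not overlap, and PRIM2 was 1.76-fold lower at 0 mM (log2 change -0.81, SE 0.16, adjusted p = 0.00731) and 1.66-fold lower at 20 mM (-0.73, adjusted p = 0.00968). PRIM1, the catalytic subunit, read 3715 and 3467, then 3548 on both arrays with ethanol in undifferentiated cells, and 2951 and 2818, then 2455 and 2291 in embryoid bodies. PRIM1 fell by 0.32 at 0 mM and by 0.58 at 20 mM on the log2 scale (adjusted p = 0.0164 and 0.00156).

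The polymerase subunits split in direction. POLD2, an accessory subunit of polymerase delta, read 2138 and 2188, then 1698 and 1820 in undifferentiated cells, and 1288 and 1380, then 1413 and 1288 in embryoid bodies. The stages did not overlap and POLD2 fell at both doses (log2 changes -0.70 and -0.38). POLD3, another accessory subunit, rose at both (0.40 and 0.35), with signals of 1479 to 1585 in undifferentiated cells and 1995 to 2042 in embryoid bodies. POLE, the catalytic subunit of polymerase epsilon, had signals of 363 and 513, then 347 and 316 in undifferentiated cells, and of 646 and 741, then 617 and 891 in embryoid bodies. All embryoid body arrays were higher than all undifferentiated arrays, but replicates lay far apart. POLE rose 2.24-fold at 20 mM (1.16, SE 0.23, adjusted p = 0.00763), and its change at 0 mM did not pass (0.68, SE 0.23, adjusted p = 0.0518). POLE2, the second subunit of that enzyme, fell at 20 mM (-0.35).

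The catalytic subunit of polymerase delta, POLD1, passed at neither dose (log2 changes -0.13 and -0.15), and neither did POLA1 (-0.22 and -0.27), the catalytic subunit of polymerase alpha. POLA2, its accessory subunit, had the smallest change of the group. It read 741 and 832, then 794 and 776 in undifferentiated cells, and 741 and 776, then 759 and 759 in embryoid bodies. These ranges overlapped, with a change of -0.05 at each dose (SE 0.08, adjusted p = 0.631 and 0.629).

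The clamp and its loader were lower in sign for all 6 genes at both doses, and 3 fell at 0 mM and 5 at 20 mM (medians -0.33 and -0.29). PCNA, the clamp, fell at 20 mM (log2 change -0.35, adjusted p = 0.0207) with signals of 11749 to 13183 in undifferentiated cells and 9772 to 10965 in embryoid bodies. RFC2, a small loader subunit, read 1862 and 2138, then 1820 and 1660 in undifferentiated cells, and 1318 and 1288, then 1445 and 1514 in embryoid bodies. The stages did not overlap, and RFC2 fell 1.53-fold at 0 mM (-0.62, SE 0.10, adjusted p = 0.00335) but did not pass at 20 mM (-0.23, adjusted p = 0.0838). A second RFC2 probe set gave the reverse pattern of calls, -0.10 at 0 mM and a fall of 0.66 at 20 mM (adjusted p = 0.575 and 0.00957 over probe sets).

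RFC3 and RFC4, also small loader subunits, fell at both doses (log2 changes -0.57 and -0.47, and -0.42 and -0.33). RFC3 signals were 3802 and 3388, then 3548 and 3802 in undifferentiated cells, and 2399 and 2455, then 2570 and 2754 in embryoid bodies, without overlap. A second RFC3 probe set fell with it (-0.43 and -0.62), and another, dim one, at 191 to 407, had values of 0.38 and 0.65 that did not pass. RFC1, the large subunit, had signals of 1995 and 2089, then 2138 and 2138 in undifferentiated cells and 1905 and 1905, then 1820 and 1820 in embryoid bodies. The groups were close together but did not overlap, and RFC1 passed at 20 mM (-0.23, SE 0.06, adjusted p = 0.0240, in 8 of 18 alternatives) and not at 0 mM (-0.10). RFC5 also passed at 20 mM (-0.25, adjusted p = 0.0245) and not at 0 mM (-0.03), with signals of 2188 and 2239, then 2512 and 2344 against 2138 and 2188, then 2042 and 2042, which touched at 2188.

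RPA3, the small subunit of RPA, was among the clearest falls. Its signals were 7586 and 7943, then 8128 and 7244 in undifferentiated cells, and 4266 and 4365, then 3802 and 3802 in embryoid bodies. The stages lay far apart, and RPA3 fell 1.80-fold at 0 mM (log2 change -0.85, SE 0.08, adjusted p = 0.000645) and 2.02-fold at 20 mM (-1.01, SE 0.08, adjusted p = 0.000317), in all 20 alternatives at each dose. RPA2 passed at 20 mM (-0.30, adjusted p = 0.0394, in 9 of 20 alternatives) and not at 0 mM (-0.15). RPA1, the large subunit that binds DNA, read 6166 and 5623, then 6918 and 5754 in undifferentiated cells, and 5370 and 5248, then 5370 and 5129 in embryoid bodies. These did not overlap, yet the change did not pass at either dose (-0.15 and -0.27, adjusted p = 0.291 and 0.0825), while a second RPA1 probe set fell at both (-0.32 and -0.45, adjusted p = 0.0332 and 0.00918 over probe sets).

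Nucleotide synthesis held 3 falls and 1 rise at 0 mM and 3 falls at 20 mM, with medians of -0.25 and -0.27. TK1, which salvages thymidine, read 1514 and 1413, then 1288 and 1413 in undifferentiated cells, and 1096 and 977, then 955 and 912 in embryoid bodies. The stages did not overlap, and TK1 fell 1.41-fold at 0 mM (log2 change -0.50, SE 0.09, adjusted p = 0.00682) and 1.45-fold at 20 mM (-0.53, adjusted p = 0.00475). TYMS, which makes thymidylate anew, read 11482 on both arrays, then 12589 and 10715 in undifferentiated cells, and 14125 and 13804, then 12882 and 12882 in embryoid bodies. All embryoid body arrays were the higher ones. TYMS rose 1.22-fold at 0 mM (0.28, SE 0.09, adjusted p = 0.0445), a call kept in 8 of 19 alternatives and lost under median centring, where the change was 0. At 20 mM it did not pass (0.15, adjusted p = 0.214), and over 19 alternatives the change there ran from -0.27 to 1.12, so its sign rested on the setting. A second TYMS probe set, at 2239 to 3236, rose at 0 mM (0.43, adjusted p = 0.0130 over probe sets) and did not pass at 20 mM (0.10). In the fit over probe sets the brighter TYMS probe set had an adjusted p of 0.0605 at 0 mM.

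Ribonucleotide reductase gave small falls and unequal probe sets. RRM1, the large subunit, read 10715 and 10965, then 10965 and 10715 in undifferentiated cells, and 9120 and 8913, then 9550 and 8913 in embryoid bodies. The stages did not overlap, and RRM1 fell at both doses (log2 changes -0.27 and -0.23, SE 0.07, adjusted p = 0.0218 and 0.0319). These calls were kept in 11 and 7 of 19 alternatives, and the sign at 20 mM turned under cyclic loess. A dimmer RRM1 probe set, at 1380 to 1660, did not pass (0.03 and -0.10). The brighter probe set of RRM2, the small subunit that sets the enzyme's activity in S phase, read 7943 and 7943, then 8318 and 7943 in undifferentiated cells, and 6761 and 6761, then 6607 and 6457 in embryoid bodies. It fell 1.17-fold and 1.24-fold (-0.23 and -0.32, SE 0.06, adjusted p = 0.0267 and 0.00826).

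The other RRM2 probe set did not show this fall. It read 4677 and 5012, then 5623 and 5129 in undifferentiated cells, and 5623 and 5623, then 5495 and 5623 in embryoid bodies. At 0 mM both embryoid body arrays were higher here and at 20 mM the stages overlapped, with log2 changes of 0.22 (SE 0.09, adjusted p = 0.0878 over 25802 probe sets) and 0.05 (adjusted p = 0.658). In the same fit over probe sets the brighter one had adjusted p values of 0.0459 and 0.0155. The direction of RRM2 between stages therefore depended on the probe set, and the difference between the probe sets was not tested.

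**Figure D3:**
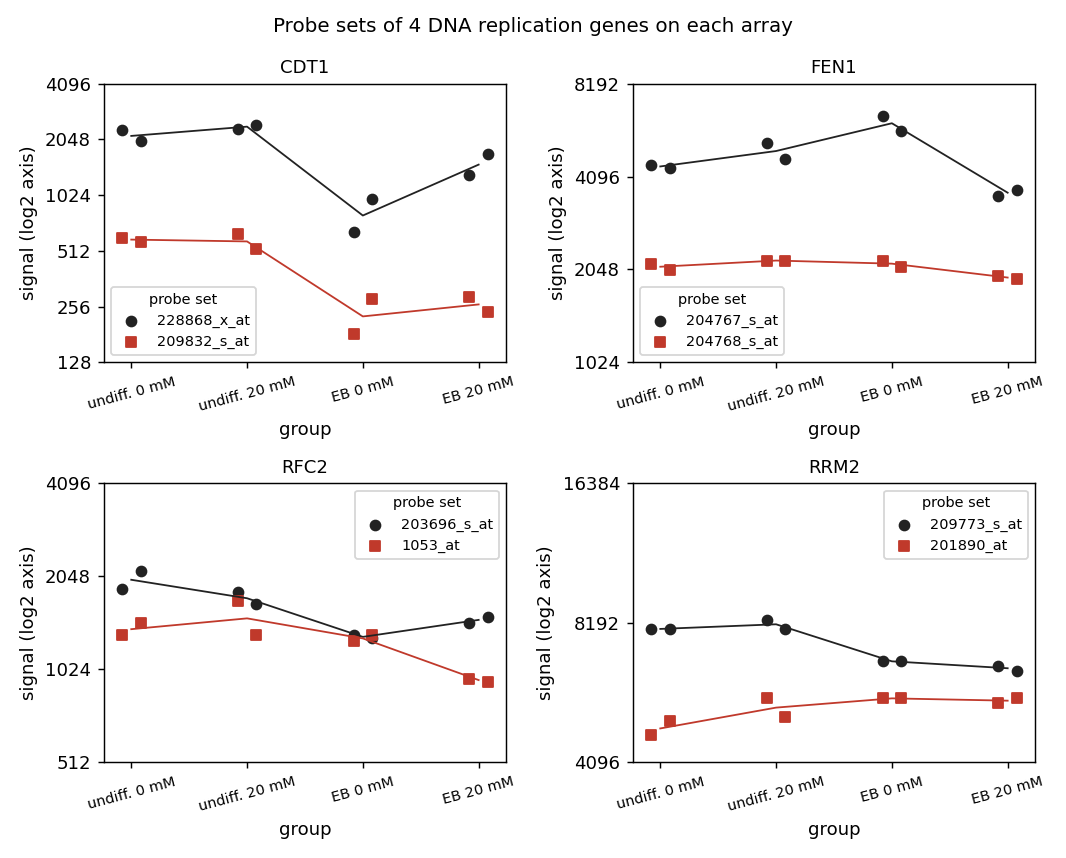
Signals on a log2 axis of each probe set that names only CDT1, FEN1, RFC2 or RRM2, with both arrays of each group as points and lines through the group means of log2 signal. Both CDT1 probe sets fall in embryoid bodies, while the probe sets of FEN1, RFC2 and RRM2 differ in course between groups.

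Okazaki fragment maturation and uracil removal gave 1 fall and 1 rise at 0 mM and 2 falls at 20 mM among 3 genes. UNG, the glycosylase that takes uracil out of new DNA, read 10233 and 10000, then 10715 and 9120 in undifferentiated cells, and 5754 and 6026, then 5370 and 5129 in embryoid bodies. The stages lay far apart, with a 1.72-fold fall at 0 mM (log2 change -0.78, SE 0.10, adjusted p = 0.00151) and a 1.88-fold fall at 20 mM (-0.91, adjusted p = 0.000742). LIG1, the ligase that seals fragments, read 794 and 977, then 851 and 933 in undifferentiated cells, and 955 and 1122, then 977 and 912 in embryoid bodies. The stages overlapped and LIG1 did not pass (0.23 and 0.08).

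FEN1, the flap nuclease, had signals of 4467 and 4365, then 5248 and 4677 in undifferentiated cells, of 6457 and 5754 in embryoid bodies without ethanol, and of 3548 and 3715 with it. The embryoid body groups lay on either side of all undifferentiated arrays. FEN1 rose 1.38-fold with stage at 0 mM (log2 change 0.47, SE 0.10, adjusted p = 0.00889) and fell 1.36-fold at 20 mM (-0.45, SE 0.10, adjusted p = 0.00912). A second FEN1 probe set read 2042 to 2188 in undifferentiated cells, 2188 and 2089 in embryoid bodies without ethanol, and 1950 and 1905 with it. It did not pass at either dose (0.03 and -0.18, adjusted p = 0.744 and 0.0943 over probe sets).

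**Figure D4:**
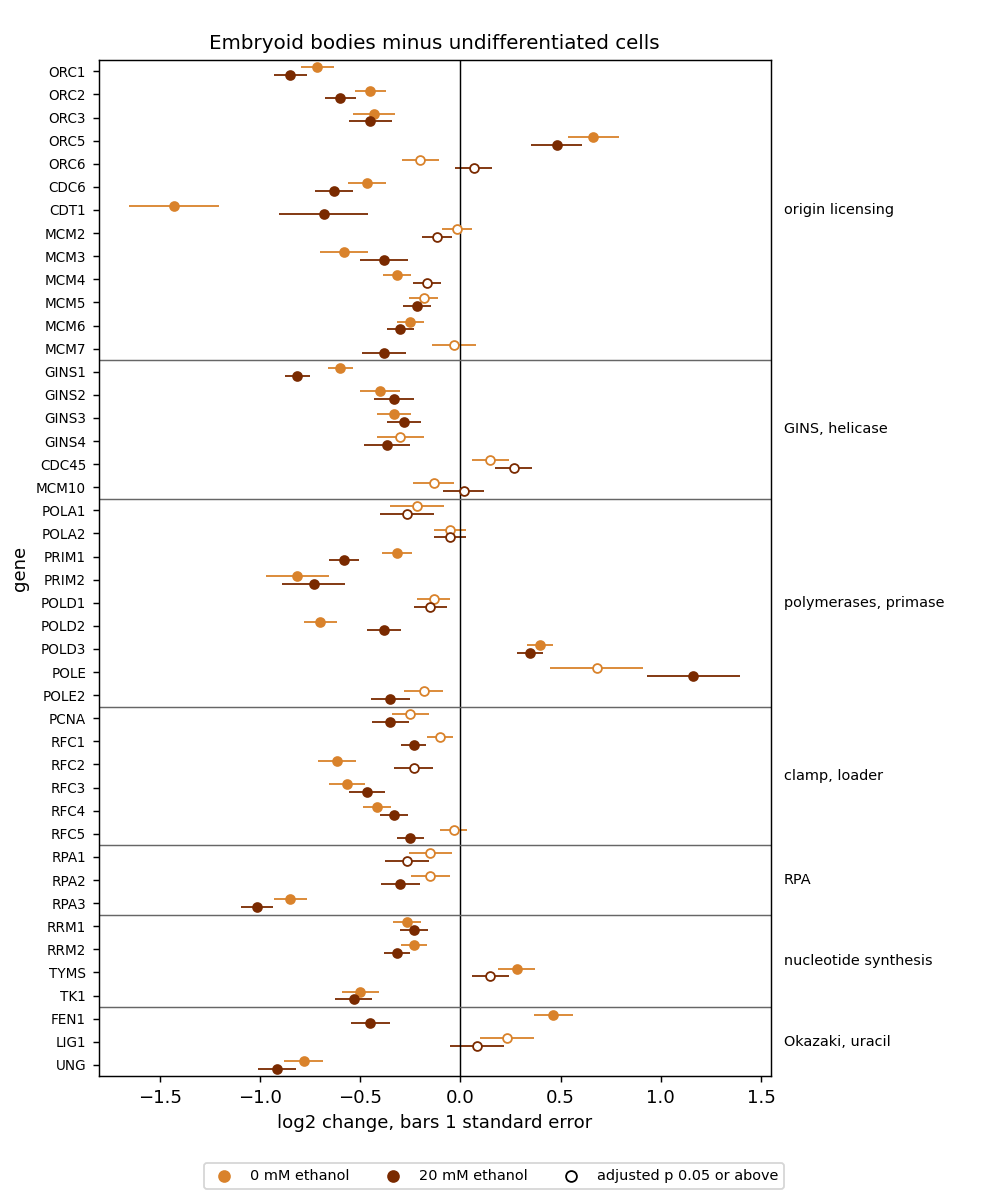
Log2 change from undifferentiated cells to embryoid bodies for each replication gene at 0 and 20 mM ethanol, with bars of 1 standard error and filled points where the adjusted p is under 0.05. Most points lie left of 0, with CDT1 at -1.43 and RPA3 at -1.01 farthest left. POLE, ORC5, POLD3, TYMS, CDC45 and LIG1 lie to the right at both doses.

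In all, 82 probe sets named a replication gene alone and 24 genes had 2 or more. Of the 23 genes with 2 or more tested probe sets, CDC6, CDT1, MCM4, ORC5 and RFC3 had at least 2 that were called the same way at 0 mM, and CDC6, CDT1, ORC2, RFC1, RFC3 and TK1 at 20 mM. A called probe set stood beside another of opposite sign for GINS4, RFC3, RPA1, RRM1 and RRM2 at 0 mM, and for GINS2, GINS4, MCM10, RFC3, RFC5, RPA1 and RRM2 at 20 mM. No gene had probe sets called in both directions within a comparison.

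Ethanol changed no replication gene at the threshold in undifferentiated cells. None of the 44 was called, against 0.00710% of all tested genes, which is 1 gene. Of the 44, 1 (2.27%) had an unadjusted p under 0.05 (limma), against 986 (7%) of all tested genes. The median log2 change was 0.01, beside 0.02 over all tested genes, and single changes ran from -0.38 for POLE to 0.17 for FEN1. The 95% interval lay within a log2 change of 0.5 either way for 40 genes and within 1 for all 44. No alternative setting gave a call among the 44.

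The 4 smallest p-values in undifferentiated cells belonged to POLD2, RFC2, RFC5 and GINS2. POLD2 read 2138 and 2188 without ethanol and 1698 and 1820 with it. Both treated arrays were below both untreated arrays, with a log2 change of -0.30 (SE 0.08, unadjusted p = 0.0125, adjusted p = 0.560). RFC2 (-0.20), RFC5 (0.13) and GINS2 (-0.18) did not pass either, with adjusted p values of 0.762, 0.787 and 0.803. RFC2 and RFC5 are both clamp loader subunits and their values had opposite signs.

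In embryoid bodies ethanol also left all 44 genes below the threshold, against 0.0710% of all tested genes, which is 10 genes. An unadjusted p under 0.05 was reached by CDT1, MCM4, MCM7, GINS1, PRIM1 and FEN1, or 13.6% of the 44, beside 22.3% of all tested genes. The median log2 change was -0.05, with 26 values below 0, 16 above and 2 at 0, against 0.02 over all tested genes and -0.08 over those in the brightest 3 deciles. The 30 replication genes in those deciles had a median of -0.05. The median of all 44 was -0.02 under quantile normalisation and 0.01 under cyclic loess, so its sign rests on the scaling.

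**Figure D5:**
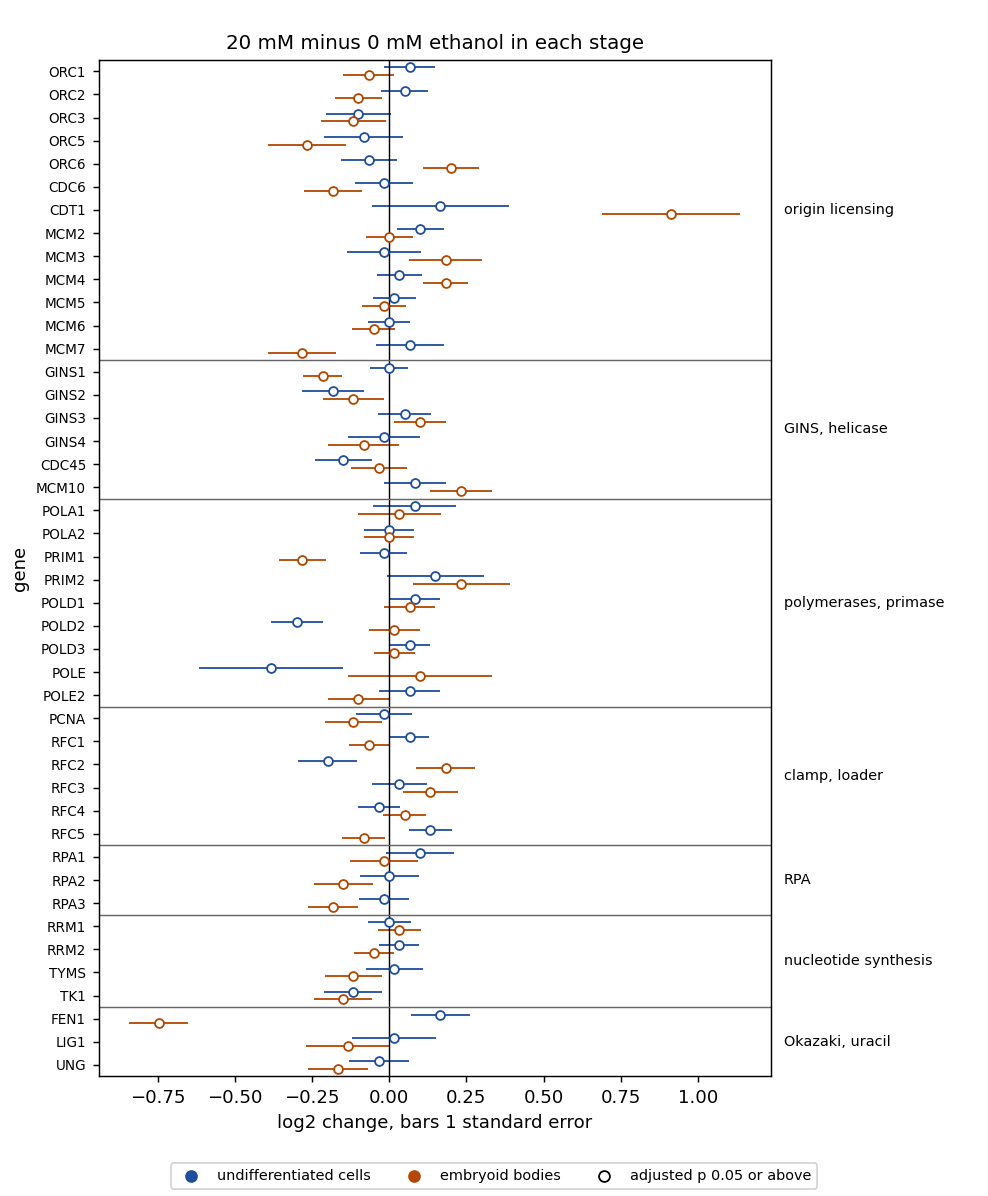
Log2 change from 0 to 20 mM ethanol for each replication gene in undifferentiated cells and in embryoid bodies, with bars of 1 standard error. No point is filled, since no adjusted p is under 0.05. CDT1 at 0.91 and FEN1 at -0.75 in embryoid bodies stand apart from the other 42 genes, all within 0.3 of 0 in embryoid bodies.

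FEN1 came nearest to the threshold. Its embryoid body signals, 6457 and 5754 without ethanol and 3548 and 3715 with it, did not overlap, and the log2 change was -0.75 (SE 0.09, 95% interval -0.98 to -0.51, adjusted p = 0.0607). The second FEN1 probe set differed by -0.15 (adjusted p = 0.350 over probe sets). FEN1 passed with trended and robust variance (adjusted p = 0.00451), with the filter at the 75th percentile (0.0153), with median centring (0.0189) and with 16 added to each signal (0.0496), and its adjusted p over the 19 alternatives ran from 0.00451 to 0.232.

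CDT1 moved the other way in embryoid bodies, from 646 and 977 without ethanol to 1318 and 1698 with it. The arrays did not overlap but replicates lay far apart, and the log2 change was 0.91 (SE 0.22, 95% interval 0.36 to 1.46, adjusted p = 0.118, range over alternatives 0.0253 to 0.665). The second CDT1 probe set read 182 and 282 without ethanol and 288 and 240 with it, which overlap (0.22, adjusted p = 0.652 over probe sets). GINS1, at 4898 and 4898 without ethanol against 4169 and 4266 with it, had a log2 change of -0.22 (adjusted p = 0.139). PRIM1, at 2951 and 2818 against 2455 and 2291, had a change of -0.28 (adjusted p = 0.129). Both were lower on both treated arrays, and both passed with trended and robust variance and with median centring.

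By role, median log2 changes with ethanol in embryoid bodies were -0.05 for licensing, -0.06 for GINS and helicase activation, 0.02 for polymerases and primase, -0.01 for the clamp and loader, -0.15 for RPA, -0.08 for nucleotide synthesis and -0.17 for fragment maturation. In nucleotide synthesis the values were 0.03 for RRM1, -0.05 for RRM2, -0.12 for TYMS and -0.15 for TK1, and the second RRM2 probe set gave -0.02. The ethanol effects of both stages were compared directly, and their difference was called for none of the 44 genes, beside 0% of all tested genes. An unadjusted p under 0.05 (limma) for the difference was found for GINS1, PRIM1, POLD2, RFC2 and FEN1. This is 11.4% of the 44, beside 13% of all tested genes (1828 genes).

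The difference, embryoid bodies minus undifferentiated cells, was -0.91 for FEN1 (SE 0.13, 95% interval -1.24 to -0.58, adjusted p = 0.211) and 0.75 for CDT1 (95% interval -0.03 to 1.53, adjusted p = 0.394). FEN1 passed this test with trended and robust variance alone (adjusted p = 0.0382) out of 18 alternatives. After FEN1, the smallest p-values belonged to RFC2 (0.38, adjusted p = 0.351, and -0.57, adjusted p = 0.419 over probe sets, for its second probe set), POLD2 (0.32, adjusted p = 0.364) and GINS1 (-0.22, adjusted p = 0.385). None is therefore shown to respond to ethanol differently in the 2 stages.

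Genes that work beside the 44 were read from further lists, to be set against the 24.7% of all tested genes lower and 28.0% higher at 0 mM, and 27.1% and 29.2% at 20 mM. Of 25 other replication factors 8 (32%) were lower and 1 higher at 0 mM, and 11 (44%) lower and 2 higher at 20 mM, with medians of -0.18 and -0.22. DSCC1, a subunit of an alternative clamp loader, fell at both doses (log2 changes -0.61 and -1.13), as did DBF4, the activator of the kinase that fires origins (-0.61 and -0.52), and GMNN, the inhibitor of CDT1 (-0.47 and -0.60). TIMELESS, a fork protection factor, rose at 0 mM (0.35). The 2 genes higher at 20 mM were CHTF18 (0.90) and TOPBP1 (0.23). At 0 mM CHTF18 was not called (0.20), so it did not share the falls of DSCC1. Of 6 factors that assemble chromatin behind the fork 4 were lower at each dose and none higher, CHAF1B at 0 mM (-0.80) and ASF1B at both (-0.50 and -0.66) among them.

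Of 10 tested genes of other nucleotide supply 4 were lower at 0 mM and none higher, and 6 were lower and 1 higher at 20 mM. RRM2B, the p53-induced small subunit that can stand in for RRM2, fell 3.51-fold at 0 mM (log2 change -1.81, SE 0.09, adjusted p = 0.000101) and also at 20 mM (-1.71). DCK, which salvages deoxycytidine, fell at both doses (-0.78 and -0.76), as did DCTPP1, which clears modified dCTP (-0.68 and -0.65). DUT, which keeps dUTP out of DNA, fell too (-0.32 and -0.40).

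Of 21 genes of mitosis 15 were lower at 0 mM and 16 at 20 mM and none was higher, with medians of -0.43 and -0.55. BIRC5 (-1.03 and -1.08) and AURKA (-1.01 and -1.21), both needed to part chromosomes, fell by more than 1 at each dose. Of 21 genes that control the G1 to S transition, 3 were lower and 4 higher at 0 mM and 7 and 7 at 20 mM, with medians of -0.07 and 0.02. CDK6, the kinase that acts with D cyclins, rose (1.94 and 1.88), whereas the repressor E2F8 fell (-0.997 and -0.83). The D cyclins differed: CCND1 rose (0.65 and 0.41), CCND3 fell (-0.43 and -0.32) and CCND2 was called at neither dose. Of 6 tested CDK inhibitors CDKN1C (1.01 and 1.18) and CDKN1A (0.33 and 0.43) rose at both doses and CDKN1B fell (-0.50 and -0.40). In each of these lists ethanol called no gene in either stage.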

How the data were processed

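Total RNA was measured on 8 Affymetrix arrays of 54675 probe sets. The deposited values are log10 signals to 2 decimals, as read from the values: each array has a trimmed mean signal of 500 to 500.1, which points to global scaling, although RMA, with no version, is named per the submitters' processing notes. Other steps by the authors are not given in the sources used here. The values, planned for as log2, were converted to log2 by a constant, where 1 step is 0.0332, and not normalised further.

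A gene is its probe set with the highest mean among those that name only that gene (41097 probe sets, 19775 genes). Genes with at least 2 arrays above the array's median were tested (14079); all 44 passed. limma 3.58.1 in R 4.3.3 fitted 1 mean per group to all 8 arrays, with 4 residual and 1.81 prior degrees of freedom. Benjamini-Hochberg adjusted p under 0.05 over all tested genes counted as a call; errors are standard errors (SE) of the fitted log2 change with n = 2 arrays per group. A separate fit took each of 25802 probe sets alone. The number of arrays limits the precision. The fit was tested on simulated data.

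Members and lists were chosen with earlier results of these data known. Genes with full values are, by rule, the largest called rise and fall and the smallest stage change of each role, the 4 smallest p-values of each ethanol comparison, genes whose probe sets differ in sign of a call, and RRM2; of other lists, up to 4 genes by p. Further genes (ORC1, PCNA, POLD3 and TIMELESS among them) were chosen after their values were seen. Like-lettered replicates did not deviate together (correlations of -0.026 to 0.049 across genes). Alternatives covered filters, probe set choice, scaling, offset, variance model, block, the groups fitted and each array left out.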

Additional observations from a re-analysis of the deposited data

How the results depend on the processing

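For the 44 genes, the count called with ethanol was 0 under all 20 alternatives in undifferentiated cells. In embryoid bodies it was 0 except for 2 with the filter at the 75th percentile, 21 with median centring (all lower, beside 26.3% of tested genes lower and 1.22% higher), 1 with 16 added and 4 with trended and robust variance, which called 959 genes in all against 10; for the difference it was 1 with that variance, which called 31 genes against 0. At 0 mM the 26 calls between stages became 16 with the mean of all probe sets, 16 without _x_at and _s_at probe sets and 17 with the most variable probe set, and 17 to 27 without 1 array. The 22 lower became 14 without _x_at and _s_at probe sets, 36 with median centring, and 14 to 23 without 1 array; the 4 higher became 0, 2, 2 and 1 under the mean, without _x_at and _s_at, the most variable probe set and median centring, and 2 to 4 without 1 array. At 20 mM the 32 calls became 20 without a filter, 20 with the mean of probe sets, 18 with cyclic loess, and 16 to 28 without 1 array. The 29 lower became 17, 19 and 14 under these, 18 with quantile normalisation, and 13 to 25 without 1 array; the 3 higher became 1 with the mean, the most variable probe set or median centring, and 2 to 5 without 1 array. The cause was not tested. Changes reversed for RFC3 (0.38 at 0 mM, 0.65 at 20 mM, most variable probe set), RRM2 (0.22 and 0.05, without _x_at and _s_at), GINS2 (0.083 mean of probe sets, 1.05 most variable), GINS4 (0.39 and 0.73 likewise) and RRM1 (0.06, cyclic loess, 20 mM); other probe sets enter in all but the last. With the replicate letter as a block the counts were 0, 0, 0, 27 and 30. Relative to all tested genes the members' median was -0.27 at 0 mM (-0.12 with quantile, -0.13 with cyclic loess) and -0.32 at 20 mM (-0.12 and -0.13).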
